A study of Mus musculus with 18 samples.

Results

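The genes described here are 10 classical targets of the transcription factor NRF2: Nqo1, Hmox1, Gclc, Gclm, Gsr, Txnrd1, Srxn1, Prdx1, Ugdh and Me1. They were chosen by name, and all 10 were present among the 10897 genes measured. RNA sequencing was done on mouse colorectal tissue in 18 libraries, 6 in each group. GF-AOMS is labelled as germ-free mice with azoxymethane (AOM, a colon carcinogen) and cigarette smoke exposure, GF-AOM as germ-free mice with AOM, and Control as wild-type mice raised specific pathogen-free (SPF), likewise with AOM-induced cancer. The treatment protocol reads otherwise: it calls the same 3 groups AOM with smoke, AOM model and normal control, and the growth protocol places male C57BL/6J mice, 10 weeks old, in a pathogen-free facility. Under both readings smoke separates GF-AOMS from GF-AOM, whereas the contrast of either with Control has no single stated meaning. Under the sample labels all groups share AOM. The labels name neither tumour nor surrounding mucosa, and no dose or length of smoke exposure. They state 6 mice per group without tying each library to a mouse, so p-values here reflect only the spread between libraries, which may be technical.

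NRF2, encoded by Nfe2l2, is held at a low level in unstressed cells because KEAP1 presents it to a CUL3 ubiquitin ligase for degradation. Electrophiles and oxidants, many of which occur in tobacco smoke, modify KEAP1, so NRF2 accumulates, pairs with small MAF proteins and binds antioxidant response elements near its target genes. The targets make glutathione, regenerate thioredoxin, reduce quinones, degrade heme and supply NADPH and UDP-glucuronate, and in the intestinal epithelium they form part of the defence against dietary and luminal chemicals.

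The core of the antioxidant response element was searched as TGACNNNGC on both strands, the reverse strand reading GCNNNGTCA. RefSeq promoter windows on GRCm38.p6, from 250 bases before to 50 bases after a start site, matched 7 of the 10 genes. Those genes had 10 windows, some having several start sites, and the core was found in 6 of the 10, each of a different gene. It was found in 12.4% of the 32851 windows of the table. The sites are shown because NRF2 binds such elements near its targets, whereas the 10 genes were chosen by name. Each is given 5′ to 3′ on the strand of its gene, with the 9 bases of the core in capitals and 10 flanking bases on each side.
Srxn1, chr2:152105542-152105570, plus strand: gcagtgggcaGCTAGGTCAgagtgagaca
Gclm, chr3:122245413-122245441, plus strand: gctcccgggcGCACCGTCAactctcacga
Prdx1, chr4:116685456-116685484, plus strand: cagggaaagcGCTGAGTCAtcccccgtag
Ugdh, chr5:65435956-65435984, minus strand: gcggagcccgTGACTTAGCtggagctgat
Ugdh, chr5:65435918-65435946, minus strand: tcctcaagggGCGTGGTCAtacagttcgg
Me1, chr9:86695902-86695930, minus strand: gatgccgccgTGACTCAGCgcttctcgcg
Txnrd1, chr10:82859104-82859132, plus strand: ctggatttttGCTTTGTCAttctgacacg
Ugdh was the one gene with 2 cores in its window, which 0.99% of all windows hold. The core of Prdx1 and that of Me1 overlap TGACTCA or its reverse TGAGTCA, the AP-1 motif. The Srxn1 core begins 29 bases after the start site. The Me1 core begins 6 bases before its start site and spans it, and the other cores begin 92 bases (Txnrd1) to 134 bases (Gclm) before theirs. These start sites are those of the RefSeq windows, and some lie inside the gene intervals given below. The Me1 core and the Ugdh core of chr5:65435918-65435946 are within those intervals. The Txnrd1 core is from the window of an internal start site, and the window at the start of its interval held no match. The Nqo1 window held no match to these letters. A match is a description of the sequence, and binding was not measured here.

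Libraries held 48.95 M to 79.23 M counts (M, mega), and levels are given as CPM (counts per M counts after TMM scaling), with FPKM (per length as well) used to compare genes. Epithelial markers were present throughout: all 8 listed were measured, with a summed level of 6701 to 9462 CPM in GF-AOMS, 5741 to 8327 CPM in GF-AOM and 8184 to 13019 CPM in Control. In bulk tissue, fewer cells of a type and less RNA per cell cannot be told apart. Of 8 listed genes that mark position along the colon, 4 were measured: Hoxa13, Hoxb13, Car1 and Car4. The Control libraries did not resemble each other in Hoxa13, Hoxb13 and Car1. Car4 did not set any of them apart from the germ-free-labelled libraries. All its Control values, 117 to 478 CPM, lay within the GF-AOM range of 105 to 531 CPM. Hoxa13, a homeobox gene of the distal gut, was at 24.7 to 53.5 CPM in the 12 germ-free-labelled libraries and at 38.7 and 42.0 CPM in Control replicates 1 and 2, but at 0 to 3.05 CPM in Control replicates 3 to 6. The differences from Control were therefore computed with all 6 Control libraries, without those 4, and with a position term, the mean log2 CPM of Hoxa13 and Hoxb13, in the model. In addition, 5 libraries had TMM scaling factors of 0.721 to 0.895, against 1.0 to 1.16 in the other 13: GF-AOMS replicates 1 and 2, GF-AOM replicates 3 and 6, and Control replicate 2.

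Per length, the peroxiredoxin gene Prdx1 was the most abundant of the 10, at 144 ± 16.0 FPKM (SD, n = 18), and it lay above the next gene in all 18 libraries. Gsr followed at 43.5 ± 10.2 FPKM, Srxn1 at 34.7 ± 11.3 FPKM and Txnrd1 at 28.3 ± 6.73 FPKM. Gsr exceeded Srxn1 in 12 of 18 libraries, and Srxn1 exceeded Txnrd1 in 16. Ugdh averaged 27.2 ± 26.5 FPKM and Nqo1 23.8 ± 9.71 FPKM, an order set by a few libraries, since Ugdh exceeded Nqo1 in only 6 of 18. Me1 (14.1 ± 6.22 FPKM), Gclc (12.8 ± 5.84 FPKM) and Gclm (12.4 ± 2.75 FPKM) did not differ from each other beyond their spread. Hmox1 was lowest, at 7.23 ± 1.55 FPKM. The genes also differed in how much they varied. The highest library was 10.3 times the lowest for Ugdh, 4.81 times for Me1, 4.34 times for Gclc and 3.87 times for Nqo1 on the CPM scale, but 1.61 times for Gsr, 1.65 times for Prdx1 and 1.77 times for Txnrd1.

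**Figure D1:**
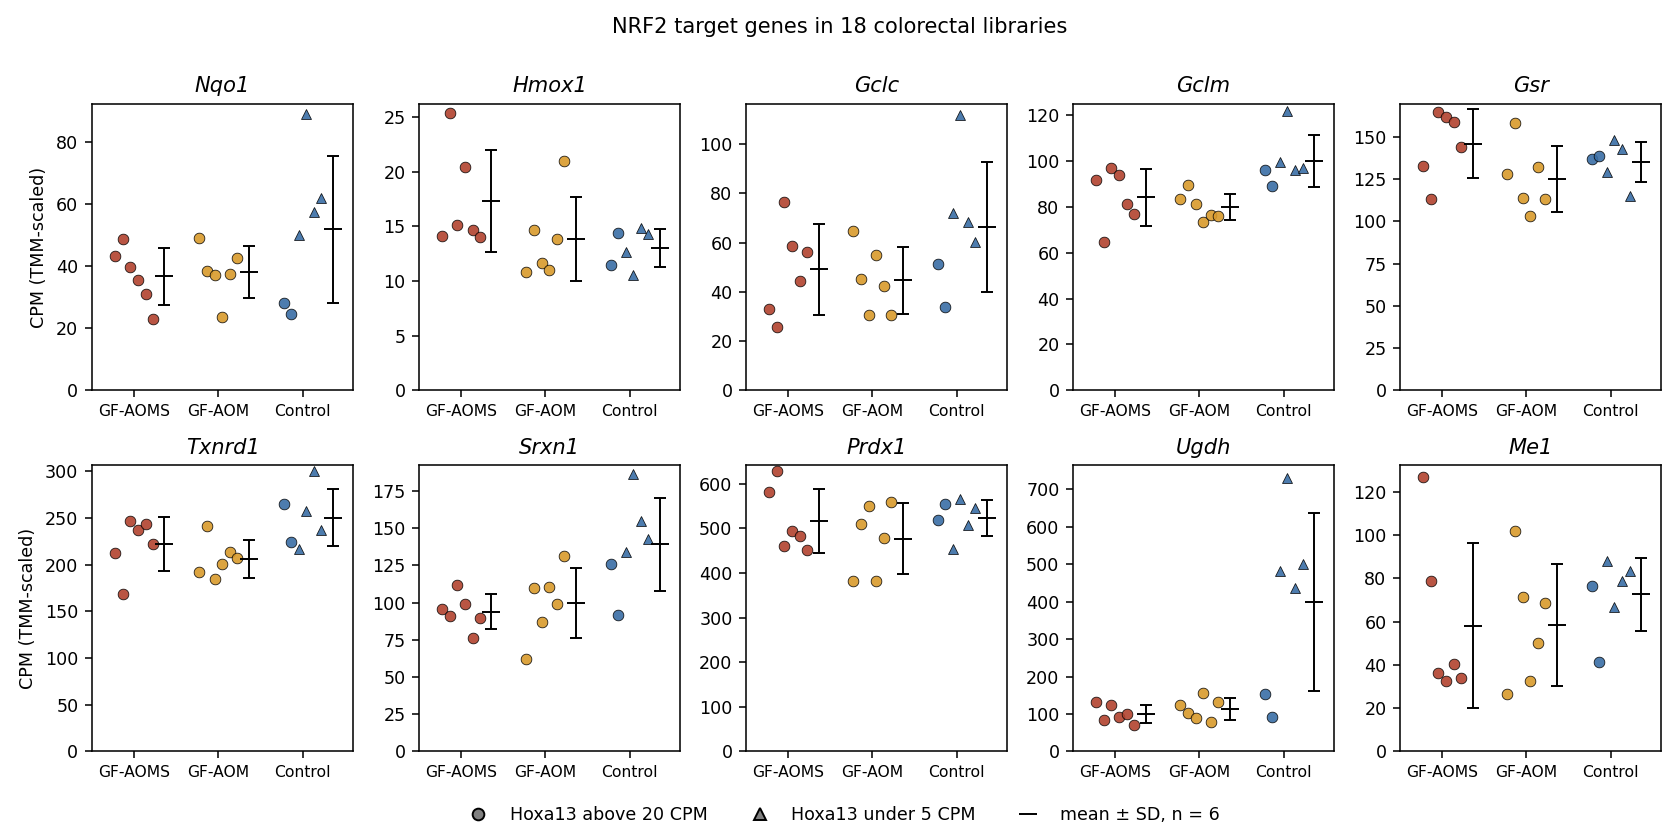
CPM of the 10 NRF2 targets in every library, with GF-AOMS, GF-AOM and Control from left to right in each panel, 6 points per group and the group mean ± SD. The 2 germ-free-labelled groups overlap in every panel, and Control replicates 3 to 6 lie at 437 to 731 CPM for Ugdh, above the 71.2 to 156 CPM of all other libraries.

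Nqo1 and Hmox1 are often read as markers of NRF2 activity, and neither passed the test in any comparison. NQO1 reduces quinones by a 2-electron step that avoids reactive semiquinones, and its gene lies at chr8:107388225-107403206. Nqo1 ranged from 22.9 to 48.7 CPM in GF-AOMS (median 37.6), from 23.7 to 49.2 CPM in GF-AOM (median 38.0) and from 24.6 to 88.9 CPM in Control (median 53.7). The groups overlapped, with GF-AOMS replicate 6 the lowest of all 18 libraries and Control replicate 4 the highest. The log2 difference of GF-AOMS from GF-AOM was -0.05 (SE 0.27, 95% interval -0.61 to 0.51, adjusted p = 1 by edgeR's quasi-likelihood test with Benjamini-Hochberg adjustment). Against Control, Nqo1 was at -0.49 (SE 0.27, adjusted p = 0.361) in GF-AOMS and at -0.45 (SE 0.27, adjusted p = 0.382) in GF-AOM, neither past the threshold. Within Control, replicates 3 to 6 held 50.1 to 88.9 CPM, above every other library, while replicates 1 and 2 held 28.2 and 24.6 CPM. Without those 4 libraries the sign turned, to 0.48 (SE 0.27) in GF-AOMS and 0.53 (SE 0.28) in GF-AOM, and with the position term to 0.30 and 0.35, with adjusted p of 0.893 to 0.999.

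Hmox1 (chr8:75093621-75100589) encodes the inducible heme oxygenase, which opens heme to biliverdin, iron and carbon monoxide. It ranged from 14.0 to 25.4 CPM in GF-AOMS (median 14.9), from 10.8 to 21 CPM in GF-AOM (median 12.7) and from 10.5 to 14.8 CPM in Control (median 13.4). All 6 GF-AOMS libraries lay above the mean of GF-AOM and above the mean of Control, but the groups overlapped in both comparisons. The log2 difference was 0.32 for GF-AOMS against GF-AOM (SE 0.18, 95% interval -0.06 to 0.71, adjusted p = 1 by edgeR). It was 0.18 without GF-AOMS replicate 2 and 0.49 without GF-AOM replicate 6. Against Control it was 0.41 in GF-AOMS (SE 0.18, 95% interval 0.02 to 0.80, adjusted p = 0.289 by edgeR) and 0.09 in GF-AOM (SE 0.18, adjusted p = 0.808). Of the 10 genes Hmox1 had the largest positive difference between GF-AOMS and Control, and it kept its sign with the position term (0.53, SE 0.23) and without the 4 Control libraries (0.42, SE 0.29). On the CPM scale, the highest Hmox1 library of each germ-free-labelled group was also its highest in macrophage markers. GF-AOMS replicate 2, at 25.4 CPM of Hmox1, had a summed 2588 CPM over the 10 of 11 markers measured. The other GF-AOMS libraries had 859 to 1222 CPM. GF-AOM replicate 6, at 21 CPM of Hmox1, had 2355 CPM, against 839 to 1416 CPM in the other GF-AOM libraries. Control replicate 2 had 1776 CPM of these markers with Hmox1 at 14.4 CPM. These sums were led by Lyz2. Over the other 9 markers GF-AOMS replicate 2 had 836 CPM, against 362 to 485 CPM in the rest of its group, and GF-AOM replicate 6 had 939 CPM, against 457 to 645 CPM. Both are libraries of low TMM factor. By FPKM, Hmox1 was highest in GF-AOMS replicate 4 (10.9, against 8.9 in replicate 2), which had the lowest macrophage sum of its group, 859 CPM. In GF-AOM it was still highest in replicate 6 (8.55 FPKM). The adipocyte sum also peaked in GF-AOMS replicate 2 (253 CPM) and GF-AOM replicate 6 (206 CPM). Between the groups the list ran opposite to Hmox1 in sign, with 8 of 10 macrophage markers negative for GF-AOMS against GF-AOM, a median of -0.34, 0 called by edgeR and 1 (Mrc1) with an unadjusted p under 0.05. The part of macrophage RNA in the Hmox1 values was not tested.

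None of the glutathione genes Gclc, Gclm and Gsr passed the edgeR test for smoke, nor did any of the 10897 genes measured. GCLC and GCLM are the catalytic and modifier subunits of glutamate-cysteine ligase, which takes the rate-limiting step of glutathione synthesis, and GSR returns oxidized glutathione to its reduced form. Gclc (chr9:77754535-77794485) ranged from 25.9 to 76.7 CPM in GF-AOMS (median 50.3), from 30.5 to 64.6 CPM in GF-AOM (median 43.8) and from 33.8 to 112 CPM in Control (median 64.5). The spread within each group was as wide as the distance between groups. The log2 difference was 0.14 for GF-AOMS against GF-AOM (SE 0.28), -0.44 for GF-AOMS against Control (SE 0.28) and -0.57 for GF-AOM against Control (SE 0.28), with edgeR adjusted p of 1, 0.436 and 0.331. The 5 libraries of low TMM factor held the 5 lowest Gclc values, 25.9 to 33.8 CPM, against 42.2 to 112 CPM in the other 13. Without those 5, Gclc stood at 0.17, -0.31 and -0.48 in the 3 comparisons. Without Control replicates 3 to 6 the differences from Control turned to 0.20 (SE 0.37) in GF-AOMS and 0.07 (SE 0.37) in GF-AOM, and with the position term they were -0.03 and -0.19.

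Gclm (chr3:122245557-122270732) varied less than its partner, at 64.5 to 96.9 CPM in GF-AOMS (median 86.6), 73.4 to 89.4 CPM in GF-AOM (median 78.9) and 89.1 to 122 CPM in Control (median 96.6). GF-AOM and Control overlapped only at 89.1 to 89.4 CPM, and all 6 libraries of each germ-free-labelled group lay below the Control mean. The log2 difference was 0.07 for GF-AOMS against GF-AOM (SE 0.10, 95% interval -0.15 to 0.29), -0.25 for GF-AOMS against Control (SE 0.10, adjusted p = 0.27 by edgeR) and -0.32 for GF-AOM against Control (SE 0.10, adjusted p = 0.187 by edgeR). Its difference moved less with the Control libraries than that of Nqo1 or Ugdh: without Control replicates 3 to 6 it was -0.13 in GF-AOMS and -0.21 in GF-AOM, and with the position term -0.21 and -0.29.

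Gsr (chr8:33652523-33698163) ranged from 113 to 165 CPM in GF-AOMS (median 152), from 103 to 158 CPM in GF-AOM (median 121) and from 115 to 148 CPM in Control (median 138). GF-AOMS replicates 3, 4 and 5 lay at 159 to 165 CPM, above every GF-AOM and Control library, but replicates 1, 2 and 6 lay within the range of the others. It had the smallest p of the 10 genes for smoke, with a log2 difference of 0.23 (SE 0.12, 95% interval -0.01 to 0.47, adjusted p = 1 by edgeR), and 5 of 6 GF-AOMS libraries lay above the GF-AOM mean. Against Control it was at 0.11 (SE 0.12) in GF-AOMS and -0.12 (SE 0.12) in GF-AOM, and without Control replicates 3 to 6 at 0.08 and -0.15.

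Among the thioredoxin genes, Txnrd1 and Prdx1 had narrower intervals on the smoke difference than Srxn1. Those of Gclm and Gsr were about as narrow. TXNRD1 reduces cytosolic thioredoxin with NADPH, PRDX1 is a thioredoxin-dependent peroxidase, and SRXN1 restores peroxiredoxins that have been over-oxidized. Txnrd1 (chr10:82833951-82897712) ranged from 169 to 247 CPM in GF-AOMS (median 229), from 185 to 241 CPM in GF-AOM (median 203) and from 217 to 299.9 CPM in Control (median 248). The groups overlapped. The log2 difference was 0.10 for GF-AOMS against GF-AOM (SE 0.11, 95% interval -0.13 to 0.34), -0.17 for GF-AOMS against Control (SE 0.11, adjusted p = 0.426 by edgeR) and -0.28 for GF-AOM against Control (SE 0.11, adjusted p = 0.259 by edgeR). Without Control replicates 3 to 6 it was -0.14 in GF-AOMS and -0.25 in GF-AOM, both with SE 0.15.

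Prdx1 (chr4:116685544-116700822) ranged from 452 to 629 CPM in GF-AOMS (median 489), from 382 to 558 CPM in GF-AOM (median 494) and from 454 to 565 CPM in Control (median 531). The GF-AOMS libraries spanned the whole Control range. Its log2 difference was 0.12 for GF-AOMS against GF-AOM (SE 0.13, 95% interval -0.15 to 0.38), -0.02 for GF-AOMS against Control (SE 0.13) and -0.14 for GF-AOM against Control (SE 0.13). The last 2 were, without Control replicates 3 to 6, -0.05 and -0.17, and with the position term 0.00 and -0.12.

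Srxn1 (chr2:152105516-152109322) ranged from 76.3 to 112 CPM in GF-AOMS (median 93.5), from 62.0 to 131 CPM in GF-AOM (median 104) and from 91.4 to 186 CPM in Control (median 138). GF-AOM replicate 1 was the lowest library and Control replicate 4 the highest. For smoke the log2 difference was -0.09 (SE 0.17, 95% interval -0.45 to 0.27). Against Control it was -0.57 in GF-AOMS (SE 0.17, 95% interval -0.92 to -0.21, adjusted p = 0.126 by edgeR) and -0.48 in GF-AOM (SE 0.17, adjusted p = 0.22 by edgeR). Srxn1 was at 134 to 186 CPM in Control replicates 3 to 6, again above all other libraries (62.0 to 131 CPM). Without Control replicate 2 alone, Srxn1 passed in GF-AOMS (-0.66, adjusted p = 0.028 by edgeR). Without Control replicates 3 to 6 its difference was -0.20 (SE 0.22) in GF-AOMS and -0.12 (SE 0.22) in GF-AOM.

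Ugdh was the one gene of the 10 to pass the test in any comparison. UGDH oxidizes UDP-glucose to UDP-glucuronate, the donor for glucuronidation and for glycosaminoglycan synthesis, and its gene lies at chr5:65413221-65435949. Ugdh was at 133, 84.3, 124, 90.8, 101 and 71.2 CPM in GF-AOMS replicates 1 to 6, at 123, 103, 88.1, 156, 78.4 and 133 CPM in GF-AOM, and at 154, 91.5, 481, 731, 437 and 501 CPM in Control. Control replicates 1 and 2 were thus within the germ-free-labelled range, and the whole excess came from replicates 3 to 6. The fold of GF-AOMS over Control was 0.252 (log2 difference -1.99, SE 0.37, 95% interval -2.77 to -1.20, adjusted p = 0.0304 by edgeR), with 6 of 6 GF-AOMS libraries below the Control mean. The call was lost with limma (adjusted p = 0.11), with only the 2 groups fitted by edgeR (adjusted p = 0.102), and when GF-AOMS replicate 1, 2, 4, 5 or 6 or Control replicate 3, 4, 5 or 6 was left out singly (adjusted p by edgeR 0.0545 to 0.0884). GF-AOM against Control gave a close value, -1.81 (SE 0.37, 95% interval -2.59 to -1.03), which missed the threshold at an adjusted p of 0.0792 by edgeR and passed with DESeq2 (adjusted p = 0.000365) or by edgeR without Control replicate 1 (0.0345) or 2 (0.00716). Smoke itself gave -0.17 (SE 0.36, 95% interval -0.93 to 0.58, adjusted p = 1 by edgeR). Without Control replicates 3 to 6 the difference was -0.28 (SE 0.28, adjusted p = 0.999) in GF-AOMS and -0.11 (SE 0.28, adjusted p = 0.999) in GF-AOM, and with the position term -0.58 (SE 0.34) and -0.48 (SE 0.33).

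**Figure D2:**
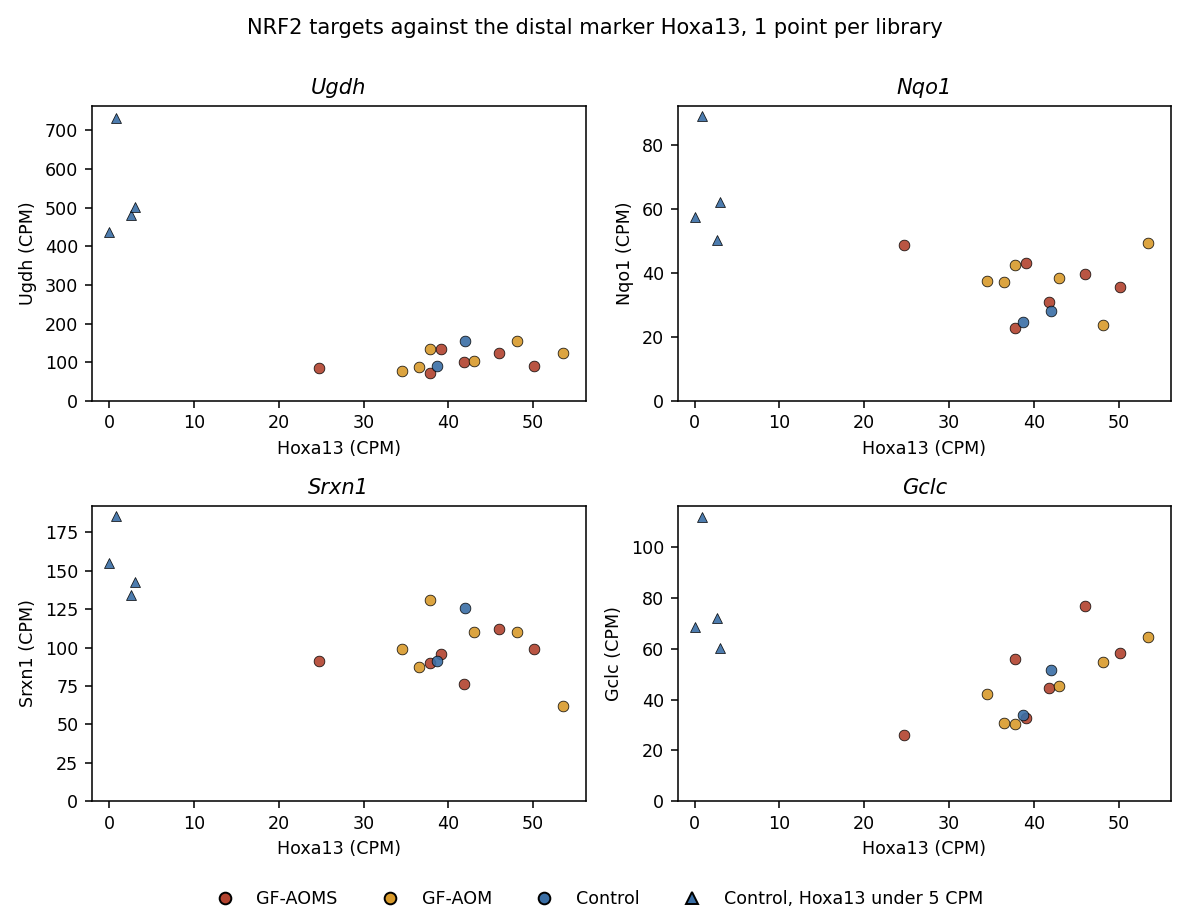
CPM of Ugdh, Nqo1, Srxn1 and Gclc, chosen after their values were seen (vertical axes), against CPM of Hoxa13 (horizontal axes), one point per library, with GF-AOMS, GF-AOM and Control in separate colours and the Control libraries with Hoxa13 under 5 CPM (replicates 3 to 6) drawn as triangles. For Ugdh the triangles lie at 437 to 731 CPM, and Control replicates 1 and 2 lie among the germ-free-labelled libraries.

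Genes outside the set moved with the same 4 Control libraries. Car1, a carbonic anhydrase gene among the position markers, reached 5335 to 19166 CPM there, while the other 14 libraries held 137 to 746 CPM. Car4, of the same list, did not move with them. The 5 of 10 adipocyte markers measured summed to 263 to 848 CPM in those 4 libraries, against 98 to 253 CPM in the others, and Adipoq and Plin1 were not among the genes measured. Position and fat cannot be told apart from each other in these 4 libraries, and the part of either in the Ugdh, Nqo1 and Srxn1 values was not tested.

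Me1 (chr9:86581371-86695953), cytosolic malic enzyme, makes NADPH while converting malate to pyruvate. It ranged from 32.4 to 127 CPM in GF-AOMS (median 38.4), from 26.4 to 102 CPM in GF-AOM (median 59.3) and from 41.5 to 88.2 CPM in Control (median 77.8). GF-AOMS replicates 1 and 2 were at 127 and 78.7 CPM, while the other 4 lay between 32.4 and 40.3 CPM. Those 2 are libraries of low TMM factor. The log2 difference was -0.01 for GF-AOMS against GF-AOM (SE 0.36, 95% interval -0.77 to 0.75), -0.32 for GF-AOMS against Control (SE 0.36, adjusted p = 0.66 by edgeR) and -0.31 for GF-AOM against Control (SE 0.36, adjusted p = 0.63 by edgeR). Without the 5 libraries of low TMM factor these became -0.57 (SE 0.31, adjusted p = 0.925), -1.14 (SE 0.30, adjusted p = 0.0644) and -0.57 (SE 0.30, adjusted p = 0.276). Me1 stood, without Control replicates 3 to 6, at -0.02 (SE 0.57) against Control in both groups, and with the position term at 0.00 in GF-AOMS and 0.01 in GF-AOM.

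Across the set, 0 of 10 genes passed the edgeR test for GF-AOMS against GF-AOM, where 0% of all 10897 genes passed. DESeq2 (0.0275% of all genes called) and limma also called 0 of the 10, and 0 of 10 had an unadjusted edgeR p under 0.05 (1.09% of all genes). DESeq2 gave 1 such gene, Gsr, and limma 1, Hmox1. The signs were 6 positive and 4 negative, with a median log2 difference of 0.09, against 0.01 over all genes. None of the 10 separated the groups without overlap, which 0.0642% of all genes did. For GF-AOM against Control, 0 of 10 passed against 0.00918% of all genes, and Ugdh passed with DESeq2, which called 2.61% of genes. There 9 of 10 differences were negative, with a median of -0.32 against 0.00 over all genes, and 4 of 10 (Ugdh, Gclm, Srxn1 and Txnrd1) had an unadjusted p under 0.05, as had 15.7% of all genes. For GF-AOMS against Control, 1 of 10 passed, against 0.734% of all genes, and it was lower, as were 0.624% of all genes. DESeq2 also called that gene alone, against 3.44% of all genes, and limma called 0 of the 10. In this comparison 8 of 10 were negative with a median of -0.28 against 0.01 over all genes, and 4 of 10 had an unadjusted p under 0.05, as had 16.2% of all genes. No member separated either group from Control without overlap (0.762% and 0.798% of all genes for GF-AOM and GF-AOMS). Both comparisons use the same 6 Control libraries, so their values are not independent. Without Control replicates 3 to 6 the medians were -0.03 for GF-AOMS and -0.11 for GF-AOM, and 0 of 10 passed. Marker lists of cell types had the following values. Epithelial markers were negative for 7 of 8 in GF-AOMS against Control (median -0.34) and for 7 of 8 in GF-AOM against Control (median -0.46), and without Control replicates 3 to 6 their medians were -0.31 and -0.40. Smooth muscle markers were positive for 8 of 8 in both (medians 0.66 and 0.39, and 0.29 and 0.05 without those 4 libraries). Their sum was 7289.7 and 12463 CPM in GF-AOMS replicates 1 and 2, of low TMM factor, and 2177 to 3842 CPM in the rest of GF-AOMS. It was 3602 to 5865 CPM in GF-AOM and 1578 to 4756 CPM in Control. By edgeR 0 of the 16 epithelial and smooth muscle markers passed. Unadjusted p was under 0.05 for 3 epithelial and 2 smooth muscle markers in GF-AOMS and for 5 and 0 in GF-AOM. Macrophage markers were positive for 5 of 10 in GF-AOMS (median 0.05) and 10 of 10 in GF-AOM (median 0.46). Goblet cell markers were positive for 6 of 8 in both (medians 0.15 and 0.30). Adipocyte markers were negative for 5 of 5 in both (medians -2.04 and -2.09). Without those 4 libraries the medians of these 3 lists were -0.07, -0.08 and 0.25 in GF-AOMS and 0.16, -0.06 and 0.41 in GF-AOM. The part of these lists in the values of the 10 genes was not tested.

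**Figure D3:**
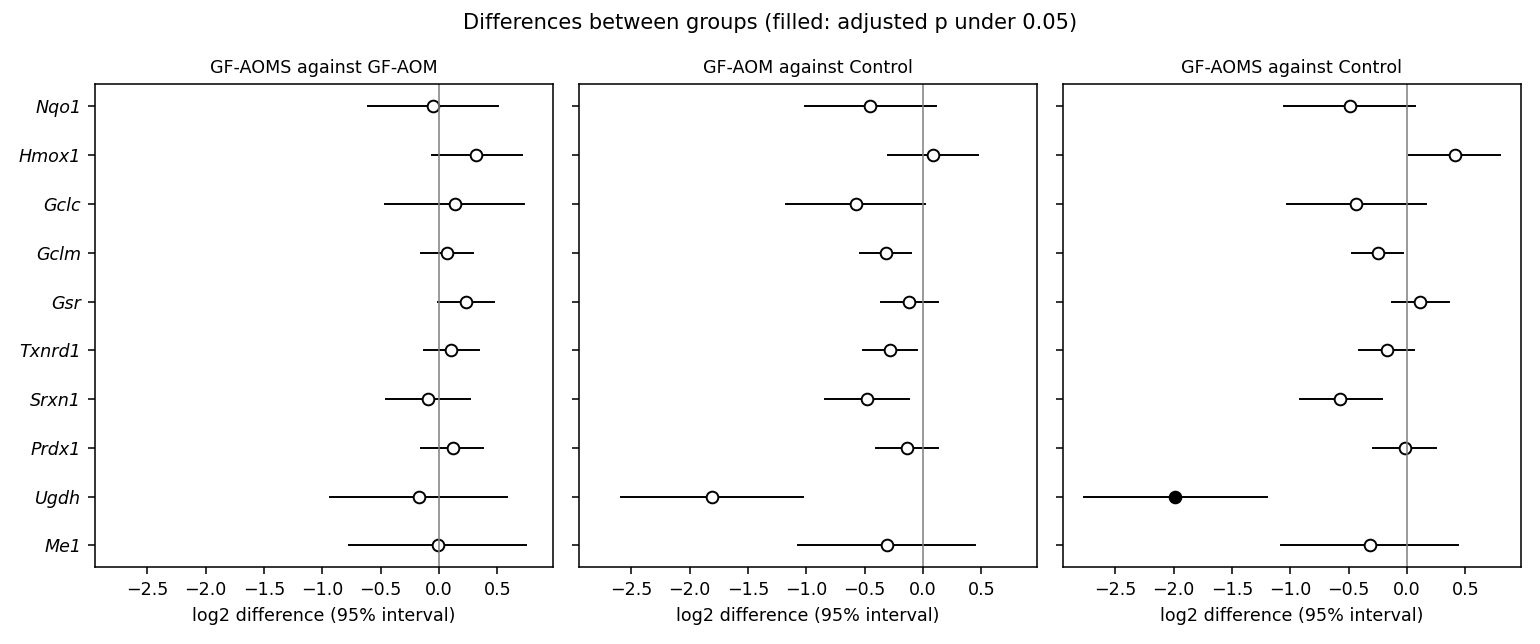
Log2 differences of the 10 NRF2 targets with 95% intervals (horizontal axis) in the 3 comparisons, from edgeR on all 18 libraries. For GF-AOMS against GF-AOM every interval includes 0, and the lowest value against Control is that of Ugdh at -1.99.

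**Figure D4:**
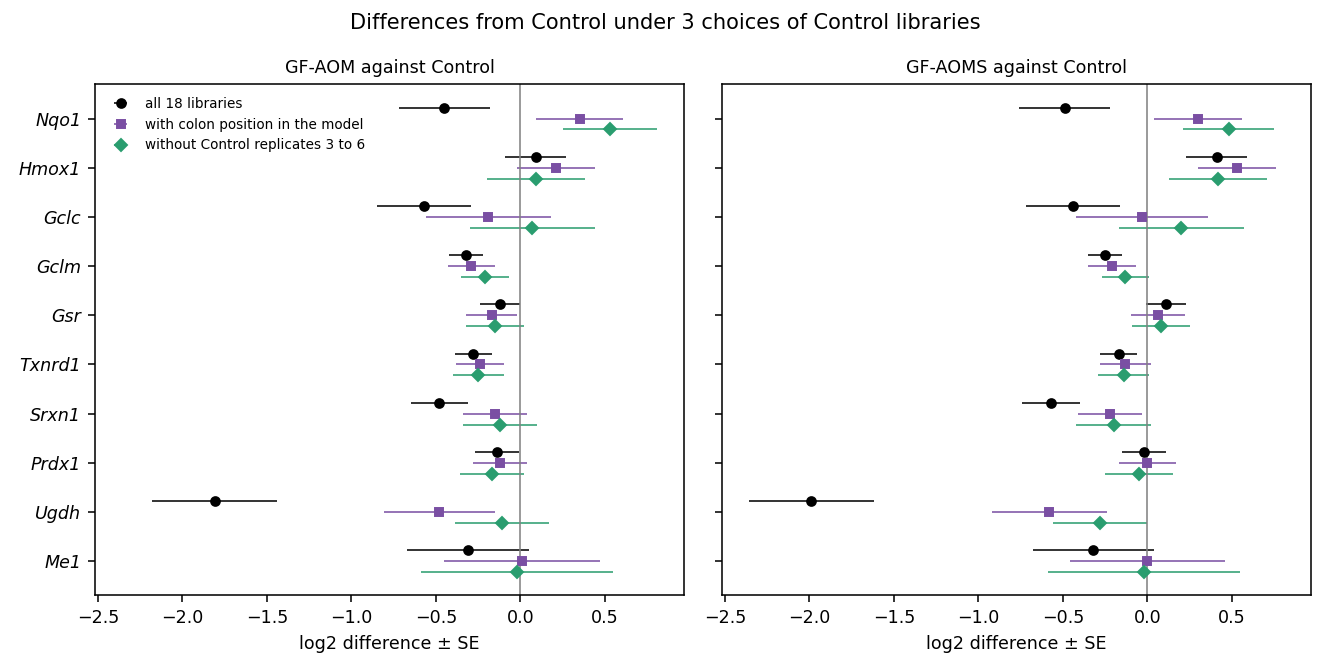
Log2 differences of the 10 NRF2 targets from Control (horizontal axis, bars ± SE), for GF-AOM in the left panel and GF-AOMS in the right, with all Control libraries, with the position term and without Control replicates 3 to 6. Ugdh moves from -1.99 to -0.58 and -0.28 in GF-AOMS, and Nqo1 is below 0 with all libraries and above 0 under both alternatives.

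The regulators of the pathway were all measured, 10 of 10, and 0 passed in any comparison by edgeR. Of all genes 0% passed for smoke, 0.00918% for GF-AOM against Control and 0.734% for GF-AOMS against Control. Nfe2l2, which encodes NRF2, averaged 184 ± 32.6 CPM in GF-AOMS, 196 ± 36.6 CPM in GF-AOM and 234 ± 39.5 CPM in Control (SD, n = 6 each). The ranges overlapped, and the log2 difference for smoke was -0.09 (SE 0.15). Keap1, its inhibitor, averaged 67.2 ± 4.34, 66.3 ± 6.03 and 75.2 ± 8.15 CPM in GF-AOMS, GF-AOM and Control, with a smoke difference of 0.02 (SE 0.09). Cul3 and Rbx1, of the ligase, were at -0.05 (SE 0.11) and -0.07 (SE 0.21) for smoke. Bach1, a repressor that competes for the same elements, was at 0.10 (SE 0.21). The small MAF genes Mafg, Mafk and Maff were at -0.06, -0.03 and -0.06, and Nfe2l1, the gene of the related factor NRF1, was at -0.02. Sqstm1 encodes p62, which sequesters KEAP1, and had the smallest p of the regulators against Control: it averaged 209 ± 16.7 CPM in GF-AOMS, 216 ± 25.0 CPM in GF-AOM and 272 ± 42.3 CPM in Control. Its log2 difference was -0.38 in GF-AOMS (SE 0.11, adjusted p = 0.126 by edgeR) and -0.33 in GF-AOM (SE 0.11, adjusted p = 0.209 by edgeR), and without Control replicates 3 to 6 it was -0.31 and -0.26. The median of the 10 regulators against Control was -0.19 in both groups with all libraries, -0.06 in GF-AOMS and -0.05 in GF-AOM with the position term, and 0.03 and 0.04 without those 4 libraries.

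Genes that work beside the 10 targets were counted from lists by function. Of the thioredoxin and peroxiredoxin genes 13 of 13 were measured, of the glutathione genes 25 of 30, of the NADPH genes 7 of 8, of the heme and iron genes 8 of 8, and of the UDP-glucuronate and carbonyl genes 17 of 23. By edgeR 0 of these passed in any of the 3 comparisons. Of all genes 0% passed for smoke, 0.00918% for GF-AOM against Control and 0.734% for GF-AOMS against Control. For smoke the unadjusted edgeR p was under 0.05 for 0, 1, 0, 0 and 1 genes of the 5 lists in that order, as for 1.09% of all genes. Those were Chac1, a glutathione-degrading enzyme, averaging 3.88 CPM with smoke and 9.21 CPM without (log2 difference -1.25, SE 0.47), and Cbr1, a carbonyl reductase, averaging 182 CPM with smoke and 151 CPM without (0.27, SE 0.12), each with an edgeR adjusted p of 1. All 7 NADPH genes had a smoke difference of 0 or above, with a median of 0.12, and the pentose phosphate gene Tkt had the smallest p among them (0.19, SE 0.11, adjusted p = 1 by edgeR). The smoke medians of the other lists were 0.05 for both the thioredoxin and the glutathione genes, -0.01 for heme and iron and 0.03 for UDP-glucuronate and carbonyl genes, against 0.01 over all genes.

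Against Control, the UDP-glucuronate and carbonyl list held the genes nearest to Ugdh in function. Ugt2b34, a glucuronosyltransferase that uses the product of UGDH, averaged 289.7 ± 67.9 CPM in GF-AOMS, 313 ± 37.1 CPM in GF-AOM and 455 ± 82.2 CPM in Control (SD, n = 6 each). Its log2 difference was -0.65 in GF-AOMS (SE 0.16, adjusted p = 0.071 by edgeR) and -0.54 in GF-AOM (SE 0.16, adjusted p = 0.153 by edgeR), neither past the threshold, and without Control replicates 3 to 6 it was -0.33 and -0.22 (SE 0.22 for both). Ugt1a7c was at -0.96 (SE 0.25, adjusted p = 0.0814 by edgeR) in GF-AOMS and -0.86 (SE 0.25, adjusted p = 0.138 by edgeR) in GF-AOM. Without those 4 libraries it was at -0.62 and -0.52 (SE 0.34 for both). Other glucuronosyltransferase genes turned sign without them. Ugt1a1 went from -2.06 to 1.88 (SE 1.0) in GF-AOMS and from -1.75 to 2.18 (SE 1.02) in GF-AOM. Ugt1a6a went from -1.15 to 0.81 and from -1.11 to 0.85 (SE 0.52 for both). Ugt1a genes share exons, so their counts are uncertain. Ugp2, Ugt1a7c, Ugt2b34 and Akr1b8 had no overlap between GF-AOM and Control, 4 of 17 genes, as against 0.762% of all genes. The gaps were narrow. The highest GF-AOM and lowest Control values were 168 and 169 CPM for Ugp2, 358 and 363 CPM for Ugt2b34, and 63.0 and 63.8 CPM for Akr1b8. For Ugt1a7c both round to 185 CPM. None of the 4 passed by edgeR. The list's median was -0.16, 0.00 with the position term and -0.03 without Control replicates 3 to 6. These 4, and Ugt1a1 and Ugt1a6a, are named after their values were seen. In GF-AOMS none of the 17 was free of overlap. The NADPH genes had a median of -0.16 in GF-AOMS and -0.30 in GF-AOM, and 6 of 7 were negative in both. With the position term these medians were -0.03 and -0.23, and without Control replicates 3 to 6 -0.02 and -0.16. Taldo1, of the pentose phosphate pathway, had the smallest p among them, at -0.41 (SE 0.15, adjusted p = 0.195 by edgeR) in GF-AOMS and -0.52 (SE 0.15, adjusted p = 0.127 by edgeR) in GF-AOM, and without Control replicates 3 to 6 it was at -0.26 and -0.37.

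Outside the set, the gene whose log2 CPM followed each target most closely over the 18 libraries was found by Pearson's r, as a description over libraries that share groups and the position difference. Ugdh was followed by the retinaldehyde dehydrogenase gene Aldh1a1 (r = 0.971), which ranged from 37.1 to 71.7 CPM in GF-AOMS, 40.5 to 105 CPM in GF-AOM and 34.4 to 412 CPM in Control. Gclc was followed by Suclg2 (r = 0.96), a subunit of succinyl-CoA ligase, and Srxn1 by Emp1 (r = 0.917). Hmox1 was followed by Il1b, the interleukin-1 beta gene (r = 0.871), at 3.28 to 23.3 CPM in GF-AOMS, 1.75 to 12.3 CPM in GF-AOM and 2.38 to 4.44 CPM in Control. The others were Nqo1 with the carboxylesterase gene Ces1g (r = 0.886), Gclm with Nadsyn1 (r = 0.879), Txnrd1 with the proteasome subunit gene Psmd3 (r = 0.894), Gsr with Chaf1a (r = 0.877), Prdx1 with Nudt1 (r = 0.908) and Me1 with Gm7329 (r = 0.911). No gene was the closest to more than one target.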

How the data were processed

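Per the labels' protocols, colon total RNA (integrity number at least 7) was depleted of ribosomal RNA and made into strand-specific Illumina libraries, all in 1 batch. Per the submitters' processing notes, featureCounts, DESeq2 and GRCm39 were used. No aligner or version is named in the sources used here. In the deposited table are raw read counts per gene and FPKM values computed by the authors for 10897 genes, each with FPKM of at least 1 in at least 15 libraries. Gene positions in the table match GRCm38 (GENCODE M21), not the build in the notes: 90.19% of 10890 matched identifiers lay within 100 bases at both ends. Srxn1 differs at its end.

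Counts of all 18 libraries were fitted with edgeR 4.0.16 (R 4.3.3): TMM scaling, quasi-likelihood test, two-sided, 15 residual degrees of freedom, Benjamini-Hochberg adjustment over all genes, threshold 0.05. CPM are TMM-scaled, and intervals of log2 differences are 95% intervals from the same fit. DESeq2 1.42.0 on counts, limma 3.58.1 on log2(FPKM + 1), other scalings, filters, a replicate block, a colon position term and left-out libraries were alternatives. The fit was tested on simulated data for GF-AOMS against GF-AOM only. The simulation held no Hoxa13 difference within Control, so it does not bear on the comparisons with Control. The 10 genes are all named; other lists are given by counts, with up to 3 genes of smallest p, all regulators and the 1 most correlated gene per target. The genes and lists were chosen with earlier results of these data known.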

Additional observations from a re-analysis of the deposited data

Results flagged for a closer look

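Gclm in Control replicate 4 was at 122 CPM, apart from the other 5 Control libraries, which lay at 89.1 to 99.4 CPM. The gap to the nearest was 0.686 of the range of the group, above the 95% critical value of Dixon's test for 6 samples. It was the 1 such value in 30 groups of 6 libraries examined, where chance gives about 1 in 20. The same library was the highest of all 18 for Ugdh (731 CPM), Srxn1 (186 CPM), Nqo1 (88.9 CPM) and Gclc (112 CPM), and it is among the 4 Control libraries with Hoxa13 under 5 CPM.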

How the results depend on the processing

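Of 840 alternative values for 30 results, 794 kept direction and side of the threshold, 26 reversed, 15 lost and 5 gained a call or moved to it. For GF-AOMS against GF-AOM, 0 of 10 genes were called under every alternative run, and the median stayed between 0.05 and 0.14 without single libraries. Leaving out single libraries turned the sign of Nqo1 (-0.15 to 0.06), Gclc (-0.04 to 0.27), Srxn1 (-0.20 to 0.01) and Me1 (-0.40 to 0.22). For GF-AOM against Control the number called was 1 with DESeq2 and without the libraries of low TMM factor, and 0 to 1 without single libraries; the gene was Ugdh (-1.80, -1.99 and, without Control replicate 1 or 2, -1.98 and -2.02). For GF-AOMS against Control the 1 call, Ugdh, became 0 with limma on log2(FPKM + 1) or log2(FPKM + 0.1) (adjusted p = 0.11 and 0.121), with only the 2 groups compared (0.102), with the position term and without Control replicates 3 to 6. Without single libraries 0 to 2 genes were called. Over the 18 such fits Ugdh ran from -2.19 to -1.72 (adjusted p 0.00262 to 0.0884). It was called in 9 of them, with adjusted p up to 0.0447, and not called without GF-AOMS replicate 1, 2, 4, 5 or 6, or Control replicate 3, 4, 5 or 6; Srxn1 was also called without Control replicate 2 (-0.66, adjusted p = 0.028). The cause was not tested. With the position term the median was -0.01 in GF-AOMS and -0.16 in GF-AOM, and without Control replicates 3 to 6 -0.03 and -0.11. Signs turned in GF-AOMS for Nqo1 (0.30 and 0.48), Prdx1 (0.00 with the term) and Gclc (0.20 without those libraries), and in GF-AOM for Nqo1 (0.35 and 0.53), Me1 (0.01 with the term) and Gclc (0.07 without them). Hmox1 in GF-AOM turned to -0.03 and -0.04 with limma and -0.01 without the libraries of low TMM factor. Without single libraries Hmox1 in GF-AOM ran from -0.07 to 0.16 and Prdx1 in GF-AOMS from -0.08 to 0.02. Over all genes, the number called was 80 by edgeR, 375 by DESeq2 and 17 by limma for GF-AOMS against Control, 1, 284 and 0 for GF-AOM against Control, and 0, 3 and 0 for smoke. With the replicate number as a block 0 genes of the set were called in each comparison (Ugdh -1.81, adjusted p = 0.0724, in GF-AOMS against Control). Same-numbered libraries correlated at -0.619 to 0.517. They correlated best with their own number in 3 of 6 pairs for GF-AOMS against Control and in 0 of 6 in each other comparison. Whether the numbers pair the samples cannot be told from these correlations. With 6 libraries a group, the intervals on the smoke difference reach 0.75 for Me1, against 0.29 for Gclm.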

Other observations

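On the CPM scale, the 5 libraries with TMM factors under 0.9 were high in Prdx1 where they were low in Gclc. By FPKM only the Gclc side held. Prdx1 was at 549 to 629 CPM in them, against 382 to 565 CPM in the other 13, with a narrow overlap. Gclc was at 25.9 to 33.8 CPM in them, against 42.2 to 112 CPM, with none. By FPKM, Prdx1 was at 127 to 148 in them, within the 112 to 168 of the other 13. Gclc was at 4.23 to 6.98 FPKM in them, against 9.72 to 26.8 FPKM. In Gclm they were at 64.5 to 91.9 CPM, against 73.4 to 122 CPM, and in Gsr at 113 to 139 CPM, against 103 to 165 CPM, with overlap in both. These libraries come from all 3 groups, 2 from GF-AOMS, 2 from GF-AOM and 1 from Control.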
